A study of Mus musculus with 4 samples.

Results

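Most mouse promoters carried no called RAD21 peak, and the reads at those promoters are described here. RAD21 is the kleisin subunit that closes the cohesin ring. A promoter was taken as the most upstream annotated start of an autosomal protein-coding gene (GENCODE vM1 on mm9, the NCBI m37 assembly), and it was a member when no RAD21 peak of embryonic stem cells (ESCs) or embryoid bodies (EBs) lay within 2 kb of that start. Of 21416 such promoters, 19849 met this rule and 1567 did not. Reads whose fragment centre fell within 500 bp of the start were counted in all 4 libraries.

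The cells were R1/E mouse ESCs in which a bacterial artificial chromosome (BAC) supplied RAD21 with a GFP-containing LAP tag, in addition to the untagged gene. They came from a stable integration that was sorted by fluorescence, so every library, controls included, carried extra copies of the Rad21 region. ESCs were taken at day 0, and EBs were grown from them by the hanging drop method and taken at day 12. From each, 1 library was made with a goat antibody against GFP and 1 with goat IgG as the control, which the labels elsewhere also call input DNA. With 1 library per group there was no replicate check, no p-value was computed, and each 95% interval covers counting error only. The files held 13714772 autosomal RAD21 reads and 12602155 IgG reads in ESCs, against 7740389 and 6929293 in EBs. An EB is a mixture of differentiating cells, and a promoter bound in few cells cannot be told apart from one bound weakly in many.

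Cohesin holds sister chromatids together and extrudes loops of DNA in interphase. It is loaded with the help of NIPBL and halted at many sites by the zinc finger protein CTCF, and it is also found at active promoters and enhancers together with Mediator. About promoters, a common distinction is between those in CpG islands, which serve most housekeeping and developmental genes, and those poor in CpG, which serve many tissue-restricted genes. A peak caller reports only places whose reads stand well above the control, so a low level spread over many promoters is not listed by it.

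Stretches of 200 bases that end just before the start are printed here for members on which the results below turn, to show how far promoters without a peak differ in base composition. Ehd3 and Olfr658 came from the members with the highest lower limit of RAD21 over IgG in ESCs, and Shcbp1 from those with the highest in EBs, in each case the first that no annotated exon overlapped. Rpl3, Mrps31 and Olfr1368 had the most RAD21 reads in their gene groups. Prdm14, Acta2 and Col5a2 were shown because their RAD21 reads were among those that differed most between the cell types, a choice made after their values were seen. The sequences were read from the NCBI m37 genome, 5′ to 3′ on the strand of the gene, and capitals mark CpG dinucleotides.
Ehd3, chr17:74153981-74154180, plus strand: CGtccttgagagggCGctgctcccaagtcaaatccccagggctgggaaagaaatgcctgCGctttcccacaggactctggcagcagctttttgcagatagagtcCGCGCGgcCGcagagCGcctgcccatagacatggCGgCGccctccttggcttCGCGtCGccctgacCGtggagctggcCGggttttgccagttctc
Olfr658, chr7:111795820-111796019, minus strand: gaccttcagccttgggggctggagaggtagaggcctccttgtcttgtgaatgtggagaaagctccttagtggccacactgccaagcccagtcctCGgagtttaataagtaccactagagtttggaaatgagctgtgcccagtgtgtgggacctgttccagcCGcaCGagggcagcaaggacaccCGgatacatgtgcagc
Shcbp1, chr8:4779535-4779734, minus strand: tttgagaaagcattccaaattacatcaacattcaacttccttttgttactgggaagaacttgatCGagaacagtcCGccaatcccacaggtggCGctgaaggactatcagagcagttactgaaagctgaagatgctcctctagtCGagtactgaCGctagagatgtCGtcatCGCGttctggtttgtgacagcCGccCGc
Prdm14, chr1:13117245-13117444, minus strand: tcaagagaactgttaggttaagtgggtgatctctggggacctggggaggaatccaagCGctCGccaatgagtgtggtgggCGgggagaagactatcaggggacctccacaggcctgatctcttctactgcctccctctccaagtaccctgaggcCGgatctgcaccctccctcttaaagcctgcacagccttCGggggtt
Acta2, chr19:34329827-34330026, minus strand: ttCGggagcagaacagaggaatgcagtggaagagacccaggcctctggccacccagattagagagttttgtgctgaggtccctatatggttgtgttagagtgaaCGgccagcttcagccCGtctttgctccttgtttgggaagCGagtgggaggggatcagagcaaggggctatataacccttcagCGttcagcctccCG
Col5a2, chr1:45560128-45560327, minus strand: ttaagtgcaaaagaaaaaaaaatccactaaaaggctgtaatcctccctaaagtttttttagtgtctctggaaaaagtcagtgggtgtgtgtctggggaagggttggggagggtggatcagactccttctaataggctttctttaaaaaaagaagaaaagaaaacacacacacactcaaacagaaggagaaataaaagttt
Rpl3, chr15:79913837-79914036, minus strand: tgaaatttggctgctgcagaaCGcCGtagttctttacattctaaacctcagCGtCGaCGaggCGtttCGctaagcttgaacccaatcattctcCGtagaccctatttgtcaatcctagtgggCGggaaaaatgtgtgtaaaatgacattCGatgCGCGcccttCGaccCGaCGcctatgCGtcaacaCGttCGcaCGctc
Mrps31, chr8:23521612-23521811, plus strand: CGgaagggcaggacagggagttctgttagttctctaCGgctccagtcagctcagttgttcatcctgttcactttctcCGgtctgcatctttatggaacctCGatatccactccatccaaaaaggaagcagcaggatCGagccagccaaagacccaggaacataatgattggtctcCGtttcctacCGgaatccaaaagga
Olfr1368, chr13:21234951-21235150, minus strand: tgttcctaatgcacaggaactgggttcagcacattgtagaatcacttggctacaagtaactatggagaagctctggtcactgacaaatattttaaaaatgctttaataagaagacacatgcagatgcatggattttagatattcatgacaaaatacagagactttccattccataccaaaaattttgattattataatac

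The number of CpG in these stretches ran from 0 at Olfr1368 and Col5a2 to 19 at Rpl3, and over all members its median was 7. GC content of the same 200 bases ran from 33.5% at Olfr1368 to 63.5% at Ehd3.

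Taken as a set, the promoters without a peak held more RAD21 reads than IgG reads. In ESCs they held 104180 RAD21 and 77287 IgG reads, a ratio of 1.24 after scaling to the autosomal reads of each library (95% interval 1.23 to 1.25). In EBs they held 57593 RAD21 and 37834 IgG reads, a ratio of 1.36 (1.35 to 1.38). Over the 19 autosomes taken one at a time the ratio ran from 1.17 to 1.45 in ESCs and from 1.25 to 1.60 in EBs, so no chromosome lay below 1 in either.

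Part of that excess was shared by DNA with no gene start near it. As a background, 1514412 tiles of 1 kb were taken that lay more than 10 kb from every annotated transcript start and from every peak. Their own ratio moved with base composition, from 0.899 in ESCs and 0.902 in EBs under 40% GC to 1.36 and 1.35 at 60 to 65% GC. When the tiles were weighted to the GC content of the promoters in steps of 1%, the promoter ratio was 1.14 times that of the tiles in ESCs (1.13 to 1.16), and for EBs the value was 1.34 (1.32 to 1.37). This ratio relative to tiles does not depend on the scaling of the libraries and is the measure used below. The promoters removed by the rule stood much higher, by construction: those with a peak within 2 kb had a RAD21 over IgG of 2.61 in ESCs and 3.41 in EBs.

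The excess over tiles was small or not detectable at promoters poor in GC and larger from 45 to 65% GC. Under 40% GC, 1812 promoters had a ratio relative to tiles of 1.01 (0.982 to 1.03) in ESCs and 0.988 (0.957 to 1.02) in EBs. At 40 to 45% GC, 2079 promoters had 1.04 (1.01 to 1.07) and 1.04 (1.00 to 1.08). At 45 to 50% GC the values were 1.13 (1.11 to 1.16) and 1.24 (1.2 to 1.28). At 50 to 55% GC, 3524 promoters reached 1.16 (1.14 to 1.19) in ESCs and 1.49 (1.45 to 1.54) in EBs, and at 55 to 60% GC, 3980 promoters reached 1.16 (1.13 to 1.19) and 1.54 (1.47 to 1.62). At 60 to 65% GC, 3122 promoters had 1.13 (1.05 to 1.23) in ESCs and 1.35 (1.17 to 1.56) in EBs. The step from GC-poor to these promoters was thus larger in EBs than in ESCs.

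At the highest GC contents the plain ratio and the ratio to tiles parted. RAD21 over IgG itself kept climbing, to 1.66 (1.60 to 1.73) in ESCs and 1.97 (1.86 to 2.09) in EBs for the 2663 promoters of 65% GC or more. Tiles of that composition were few, 251 with 144 IgG reads in ESCs and 47 in EBs, and their ratio was also high, at 1.73 (1.41 to 2.13) and 1.79 (1.25 to 2.60). Weighted to the GC content of these promoters, the tile ratio was 1.81 in ESCs and 2.19 in EBs. Relative to the weighted tiles the promoters stood at 0.916 (0.725 to 1.16) and 0.901 (0.602 to 1.35). In EBs the promoter ratio thus lay above the unweighted tile ratio and below the weighted one. An excess was not detectable at this depth in the most GC-rich promoters. Reads were also scarcest there, at a mean of 0.200 RAD21 RPM (reads per 1000000 autosomal reads) per promoter in ESCs against 0.451 at 50 to 55% GC.

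**Figure D1:**
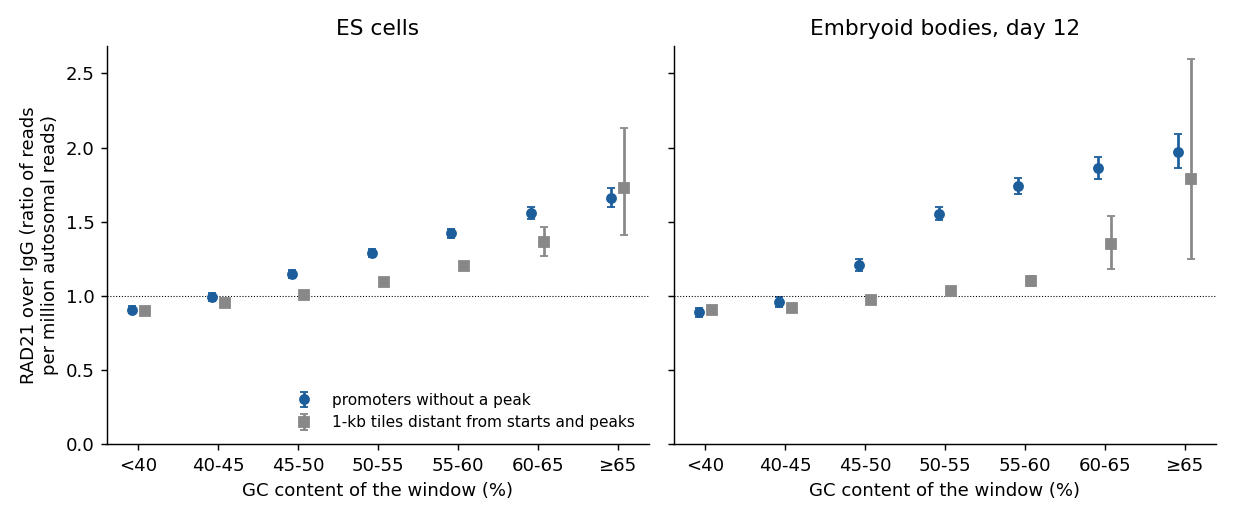
RAD21 over IgG, each scaled to autosomal reads, by GC content of the window in percent, for promoters without a peak (circles) and for distant 1-kb tiles (squares), with 95% counting intervals as bars. Circles and squares lie close together under 45% GC and part at 45 to 60% GC, more in EBs than in ESCs, while both climb at 60% GC and above.

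The IgG libraries moved with these classes too. At 55 to 60% GC, promoters held 1.37 times the IgG reads of tiles of like GC in ESCs and 1.98 times in EBs, beside 1.59 and 3.05 times the RAD21 reads. Under 40% GC the corresponding values were 1.18 and 1.14 for IgG, beside 1.19 and 1.13 for RAD21. Promoters thus held extra reads in the control as well, and the part of this in the RAD21 excess was not tested.

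Along the promoter the plain RAD21 over IgG, not set against tiles, was highest near the start. In members of 45 to 60% GC its value in ESCs was 1.02 at 1500 to 2000 bp upstream, 1.27 in the 500 bp upstream, 1.32 in the 500 bp downstream and 1.03 at 1500 to 2000 bp downstream. In EBs the same steps gave 1.06, 1.5, 1.52 and 1.13. The mean GC content of these steps was 45.1%, 50.0%, 56.4% and 46.2%, and the ratio of the tiles also climbed with GC, from 1.01 at 45 to 50% to 1.2 at 55 to 60% in ESCs and from 0.970 to 1.10 in EBs. The part of base composition in the steps along the promoter was not separated. In members under 45% GC every one of these steps lay between 0.888 and 0.955 in both cell types.

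The shape behind the ratio differed on the sides of the start. In members of 45 to 60% GC, RAD21 had its highest level 200 to 300 bp upstream, at 55.4 RPM per 1000 promoters and 100 bp in ESCs and 59.2 in EBs, where IgG stood at 41.1 and 37.5. Just downstream, at 200 to 300 bp, IgG fell to its lowest level of 24.8 in ESCs and 18.6 in EBs, with RAD21 at 33.8 and 25.8. Upstream, then, RAD21 stood above its level farther out, while in the first 500 bp downstream both libraries lay below it, IgG by more. From 500 to 1000 bp downstream RAD21 stood above that level again, at up to 44.0 in ESCs and 48.4 in EBs.

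At members of 60% GC or more both libraries had a deep trough at the start. IgG in EBs went down to 4.47 RPM per 1000 promoters and 100 bp, with RAD21 at 9.20 in the same step. On both sides RAD21 in EBs stood as shoulders, the higher at 1100 to 1200 bp downstream with 65.3 against 41.2 for IgG. In this group a window of 500 bp on either side covered mainly the trough.

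**Figure D2:**
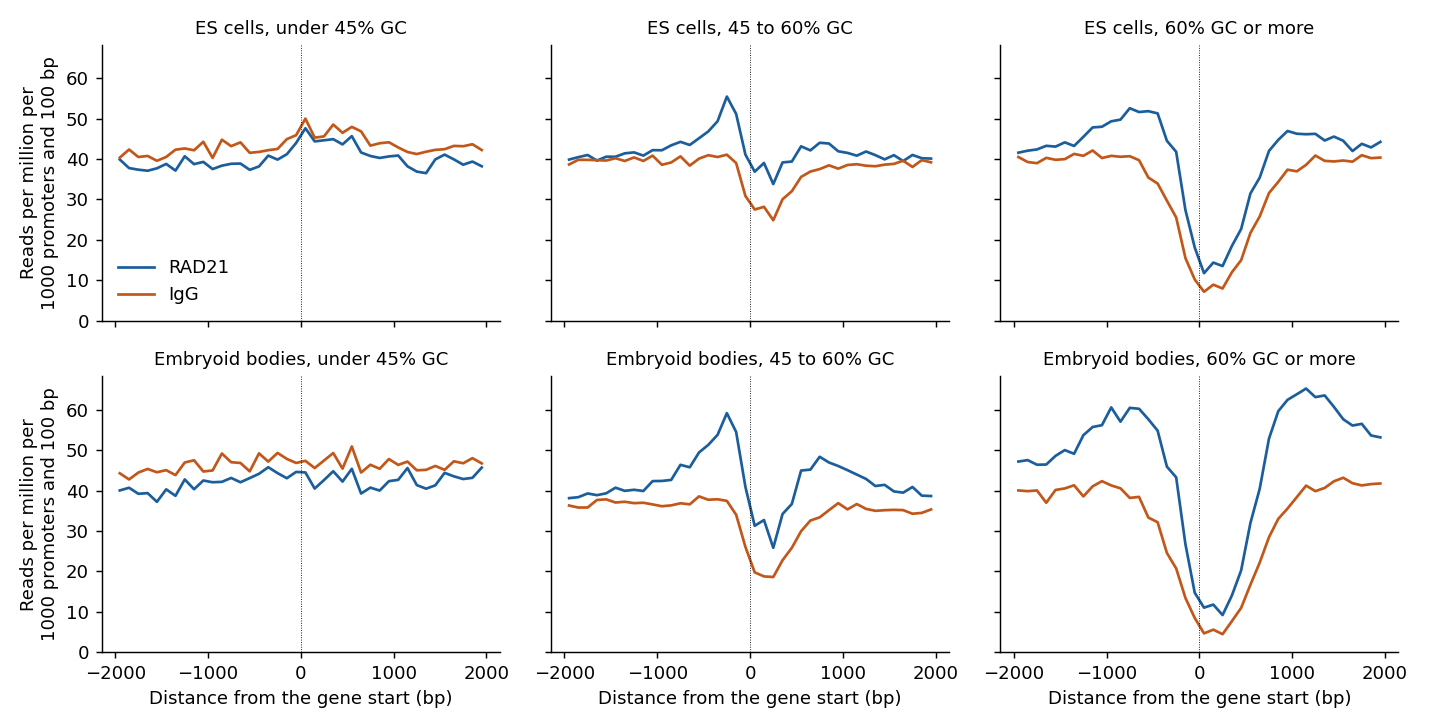
RAD21 (blue) and IgG (orange) RPM per 1000 promoters in 100-bp steps, by distance from the gene start in bp, for members under 45%, of 45 to 60% and of 60% GC or more, in ESCs (top) and EBs (bottom). RAD21 stands above IgG on both sides of the start at 45 to 60% GC, with its highest level upstream. At 60% GC or more it stands as shoulders beside a trough, and under 45% GC it follows IgG.

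CpG content separated promoters of the same GC content in EBs. CpG o/e is the number of CpG over that expected from the C and G present, and it is near or above 0.6 in CpG islands. At 50 to 55% GC, 1110 members with CpG o/e of 0.6 or more stood at 1.77 times the tiles in EBs (1.69 to 1.85), against 1.30 (1.25 to 1.35) for the 2414 members below 0.6. In ESCs the same groups stood at 1.24 (1.19 to 1.28) and 1.13 (1.10 to 1.16). At 45 to 50% GC the split in EBs was 1.83 (1.66 to 2.01) against 1.17 (1.13 to 1.21). At 55 to 60% it was 1.63 (1.55 to 1.72) against 1.34 (1.26 to 1.43), while ESCs had 1.16 in both groups. The EB intervals overlapped at 60 to 65%, at 1.36 (1.17 to 1.57) and 1.21 (1.01 to 1.44). They also did at 65% or more, at 0.897 (0.598 to 1.34) and 1.29 (0.651 to 2.57). IgG differed too, at 1.77 against 1.15 times the tiles in EBs at 50 to 55% GC, and its part was not tested.

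Divergent promoters, in which a second protein-coding gene starts on the other strand within 1 kb, were set beside members with no other start within 1 kb. The 1415 of them had 1.54 times the tiles in EBs (1.45 to 1.64), above the 1.31 (1.28 to 1.33) of the 17417 others. In ESCs they had 1.04 (0.998 to 1.09), below the 1.15 (1.13 to 1.16) of the others. Divergent promoters were richer in GC, with a median of 59.9% against 53.7%. Against all promoters without a peak of like GC most of the gap in EBs went, at 1.05 (0.999 to 1.11) for divergent promoters and 0.988 (0.969 to 1.01) for the others, while in ESCs the values were 0.897 (0.862 to 0.934) and 1.01 (0.994 to 1.02).

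Distance to the nearest peak was read on both sides of the threshold. The 260 promoters just excluded, with a peak 1.5 to 2.0 kb away, had a RAD21 over IgG of 1.39 in ESCs and 1.79 in EBs, and the 248 just included, at 2.0 to 2.5 kb, had 1.4 and 1.70. The excess over tiles did not end with distance: members 20 to 100 kb from any peak still stood at 1.14 (1.12 to 1.16) in ESCs and 1.36 (1.33 to 1.4) in EBs. The 3661 members more than 100 kb away stood at 1.11 (1.08 to 1.13) and 1.15 (1.11 to 1.18), and their median GC content was 45.3% against 55.7% at 20 to 100 kb.

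Sequence motifs were counted on both strands within 500 bp of the start as letter matches, which are descriptions and not sites. The core of the CTCF motif was present in 167 members, 0.841%, against 1.04% of all promoters. Those members stood at 1.78 times the tiles in ESCs (1.61 to 1.96), and in EBs the value was 2.02 (1.76 to 2.33), against 1.14 and 1.34 for members without it. This was the highest ratio of the 12 motifs in both cell types.

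Among the other motifs, several went with higher values in both cell types. Members with a GC box (GGGCGG, 60.5% of all promoters) stood at 1.19 (1.16 to 1.22) in ESCs against 1.07 (1.05 to 1.08) without it, and in EBs at 1.49 (1.43 to 1.56) against 1.12 (1.10 to 1.14). With an ETS motif (CCGGAAG, 19.2% of all promoters) the ESC values were 1.19 (1.16 to 1.23) and 1.13 (1.12 to 1.15), and the EB values 1.59 (1.53 to 1.65) and 1.28 (1.25 to 1.30). With a CRE (TGACGTCA, 3.2% of all promoters) they were 1.25 (1.18 to 1.33) and 1.14 (1.13 to 1.16) in ESCs, and 1.59 (1.46 to 1.73) and 1.33 (1.31 to 1.36) in EBs.

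The YY1 core and the TATA box gave other patterns. For the YY1 core (AAGATGGCG), held by 3.61% of all promoters, the values in EBs were 1.68 (1.55 to 1.82) and 1.33 (1.30 to 1.35), while ESCs had 1.10 (1.04 to 1.16) and 1.15 (1.13 to 1.16). Members with a TATA box (TATAAA in the 50 bp upstream, on the strand of the gene, 3.14% of all promoters) stood lower in both, at 1.04 (0.988 to 1.09) against 1.15 (1.13 to 1.16) in ESCs and 1.12 (1.04 to 1.2) against 1.35 (1.32 to 1.38) in EBs. The motifs differ in the GC content and CpG of their promoters: members with a GC box were richer in GC, and those with a TATA box poorer. The tiles do not remove this, because the ratio relative to tiles itself differed between GC classes. It was 0.988 under 40% GC and 1.54 at 55 to 60% GC in EBs, and 1.01 and 1.16 in ESCs. The part of GC and CpG in the motif contrasts was not tested.

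Single promoters were called at 2-fold where (RAD21 + 1) over (scaled IgG + 1) was 2 or more and both libraries together held at least 5 reads. In ESCs 3426 of 15554 members passed, 22.0%, beside 24.3% of all promoters and 9.27% of distant tiles. In EBs 2652 of 8772 members passed, 30.2%, beside 33.9% of all promoters and 12.3% of tiles. The tile shares were not matched for GC content. Members under 45% GC passed at 9.17% in ESCs and 12.6% in EBs, close to the tiles. Members of 60% GC or more passed at 32.6% and 45.6%. In both cell types 698 of 8222 members passed, 8.49%, beside 11.9% of all promoters, and they made up 42.1% of those called in ESCs and 28.4% of those called in EBs among members with enough reads in both. Removing promoters with a peak had to lower the members' shares, so no weight is placed on the gap to all promoters.

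These calls rest on few reads. The median member held 5 RAD21 and 3 IgG reads in ESCs, against 2 and 1 in EBs, and thinning the ESC libraries to the EB read numbers left 2453 calls in ESCs. By comparison, 470 promoters with an ESC peak within 500 bp had a median of 18 RAD21 reads, a number reached by 121 members, and the 431 with an EB peak had a median of 14, reached by 90 members.

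Members set apart in one cell type were measured again in the other, whose libraries had no part in the choice. Members at less than 0.5 in ESCs had a ratio relative to tiles of 1.16 (1.10 to 1.22) in EBs. Those at 2 to 3 in ESCs had 1.61 (1.55 to 1.68), and the 1278 at 3 or more had 1.75 (1.65 to 1.85). Set apart in EBs, the ESC values ran from 1.02 for members under 0.5 to 1.43 for the 1110 at 3 or more. The order of the promoters was therefore shared in part between the cell types, with a much smaller range in the library not used for the choice. The 4 libraries share the line, the transgene and local base composition.

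**Figure D3:**
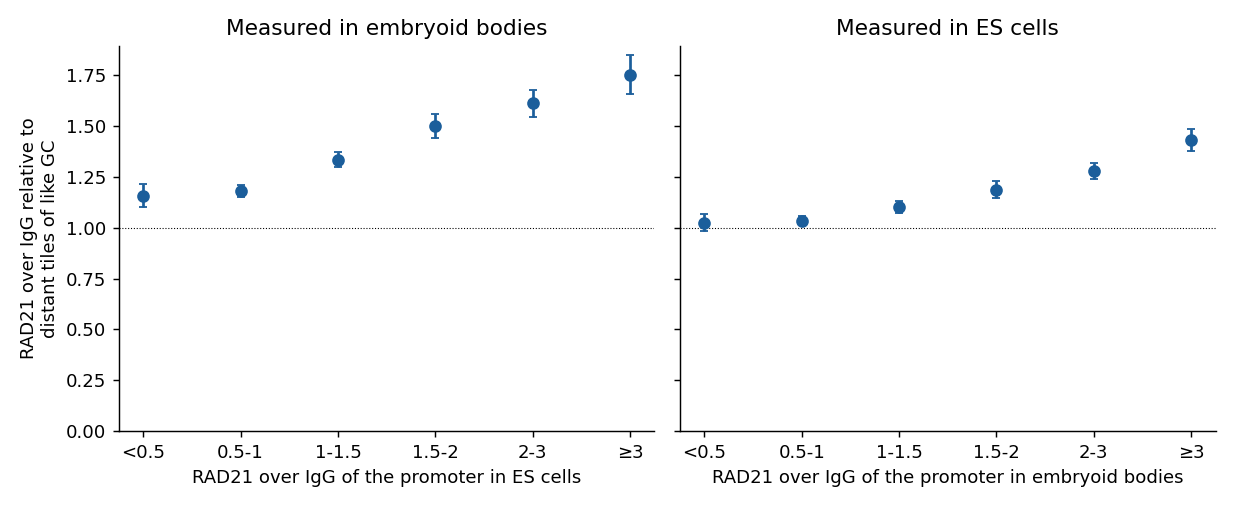
RAD21 over IgG relative to distant tiles of like GC in EBs for members grouped by their ratio in ESCs (left), and in ESCs for members grouped in EBs (right), with 95% counting intervals. The values climb from 1.16 to 1.75 on the left and from 1.02 to 1.43 on the right. Median GC content of the groups, not shown, climbs likewise.

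Among single members, 10 were named for the highest lower 95% limit of RAD21 over IgG in ESCs. They were Ehd3, Olfr658, Wfdc10, Syn3, Sbk2, Ccdc142, Trmu, Adck2, Cxadr and Fpgt, and each held 13 to 22 RAD21 reads with 0 or 1 IgG read. In EBs these 10 held 62 RAD21 and 16 IgG reads together, a ratio of 3.47 (1.98 to 6.44). None of the 10 held a match to the CTCF core in the window.

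Ehd3, which encodes an endosomal recycling protein, held 16 RAD21 and 0 IgG reads in ESCs, against 8 and 1 in EBs, within 500 bp of position 74154181 of chromosome 17. Against a floor of 3 reads for a library at 0, RAD21 there was 4.90-fold higher than IgG in ESCs, and the lower limit of the ratio was 3.54. Syn3, a synapsin of nerve terminals, held 22 RAD21 and 1 IgG read in ESCs, against 10 and 1 in EBs, a ratio of 20.2 (3.27 to 834) and 8.95 (1.27 to 388). Sbk2, which encodes a protein kinase, held 21 and 1 in ESCs and 10 and 0 in EBs. At all 3 promoters RAD21 stood above IgG in both cell types, and the nearest peak was more than 20 kb away (20511 bp for Sbk2).

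Olfr658, an olfactory receptor gene on chromosome 7, had the high value in 1 cell type. It held 16 RAD21 and 0 IgG reads in ESCs but 0 and 2 in EBs. Against the floor of 3 reads, its RAD21 reads were 3.01-fold higher in ESCs after scaling, with a lower limit of 2.18. Wfdc10, a gene of the WAP domain family, held 16 and 0 in ESCs and 4 and 2 in EBs.

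The 10 members named for EBs were Napg, 1810011O10Rik, AA415398, Ap3s2, Shcbp1, Spa17, Col5a2, C87436, Eftud2 and Got1l1, with 11 to 21 RAD21 and 0 to 2 IgG reads each in EBs. In ESCs they held 99 RAD21 and 52 IgG reads together, a ratio of 1.75 (1.24 to 2.5). Spa17, which encodes a sperm surface protein, held 12 and 0 in EBs and 8 and 0 in ESCs, and its start lay 2634 bp from the nearest peak. Shcbp1 held 12 and 0 in EBs and 12 and 1 in ESCs. Eftud2, an essential splicing factor, held 11 and 0 in EBs but 9 and 8 in ESCs.

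At the other end, the 5 members with the lowest upper limit in ESCs were Cyp3a44, Cyp2c54, Gm10277, Gpr132 and Try4, with 2 RAD21 and 46 IgG reads together. They include P450 enzymes of the liver and a pancreatic trypsin. In EBs the same 5 held 12 and 19 reads, a ratio of 0.565 (0.250 to 1.23). The 5 lowest in EBs were Enam, Gm9772, Kbtbd10, Phkg1 and Gm10855, with 2 RAD21 and 47 IgG reads in EBs and 40 and 36 in ESCs, where their ratio was 1.02 (0.634 to 1.65). Low values in one cell type were thus not low beyond counting error in the other.

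Members whose RAD21 reads differed most between the cell types were chosen on those reads, so their differences are descriptions. Prdm14, a PR domain protein that sustains naive pluripotency and germ cell specification, held 20 RAD21 reads in ESCs and 0 in EBs, with 3 and 2 IgG reads. Against the floor of 3 reads, its RAD21 reads were 3.76-fold higher in ESCs, with a lower limit of 2.79. Fam19a4, which encodes a secreted chemokine-like protein, held 24 and 0 RAD21 reads with 9 and 2 IgG reads. The other members highest in ESCs were Gm2381, Olfr658 and the protease gene Prss48, each at 0 RAD21 reads in EBs.

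The 5 members chosen as highest in EBs were Cox6c, Col5a2, Zcchc8, Gm17394 and Acta2. Col5a2, a fibrillar collagen chain, held 4 RAD21 reads in ESCs and 21 in EBs, 9.30-fold more after scaling (3.14 to 37.3), while its IgG reads were 9 and 2. Acta2, the smooth muscle actin, held 4 and 19 RAD21 reads, 8.42-fold more in EBs (2.80 to 34.0), with 2 and 5 IgG reads. Cox6c, a subunit of cytochrome oxidase, held 1 and 12, with 4 and 5 IgG reads. At Acta2 the IgG reads lay in the same direction as RAD21, and at Col5a2 in the other.

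**Figure D4:**
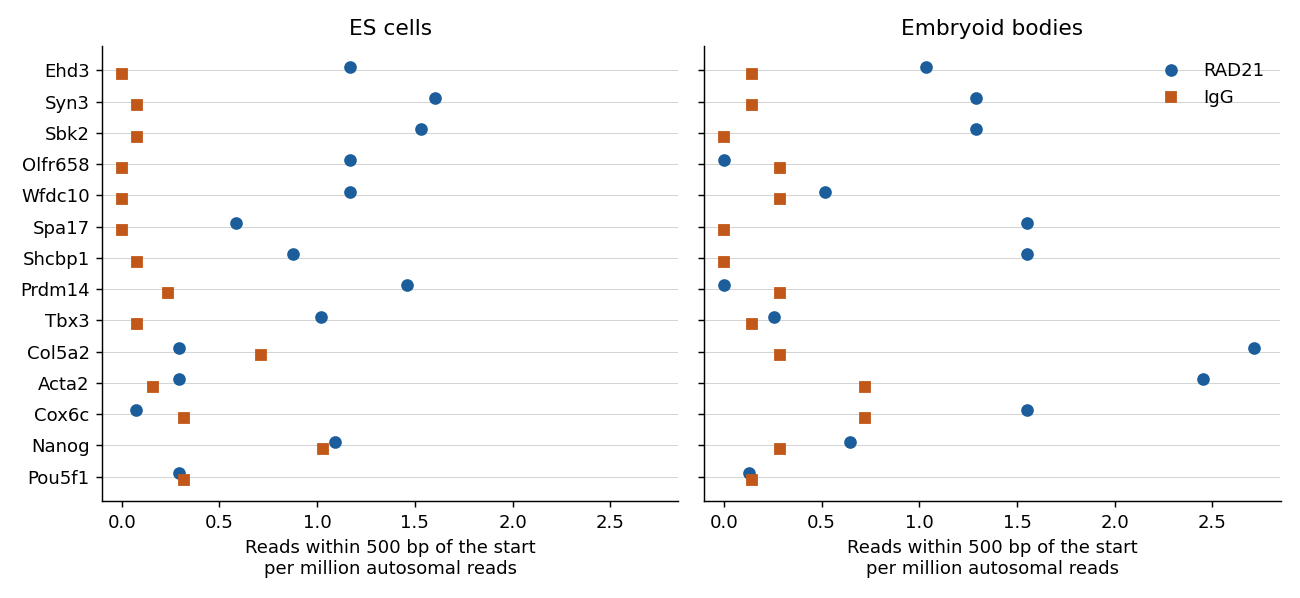
RAD21 (circles) and IgG (squares) within 500 bp of the start, in RPM, at 14 named promoters without a peak, in ESCs and EBs, 1 library each. Prdm14 and Olfr658 have RAD21 reads in ESCs only, Col5a2 and Acta2 stand highest in EBs, and Pou5f1 has RAD21 and IgG at like levels in both.

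Gene groups were then summed over their members without a peak and set beside distant tiles of like GC and beside all promoters without a peak of like GC. Ribosomal protein, complex I and proteasome genes stood near the tiles in ESCs and above them in EBs, while RNA polymerase II subunits, given further on, had the higher value in ESCs. The 73 cytosolic ribosomal protein genes had 1.02 times the tiles in ESCs (0.871 to 1.19), and in EBs the value was 1.66 (1.37 to 2.01). The 70 mitochondrial ribosomal protein genes had 1.06 (0.914 to 1.24) and 1.75 (1.45 to 2.12), and 28 genes for subunits of respiratory complex I had 1.18 (0.941 to 1.49) and 1.96 (1.45 to 2.65). The 34 proteasome subunits had 1.13 (0.905 to 1.41) and 1.51 (1.15 to 1.98).

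Those housekeeping values were close to other members of their GC content. Relative to all promoters without a peak of like GC, the EB values were 1.07 (0.885 to 1.30) for cytosolic ribosomal proteins, 1.18 (0.974 to 1.42) for mitochondrial ones, 1.26 (0.934 to 1.71) for complex I and 1.00 (0.764 to 1.32) for the proteasome. At 2-fold, 24 of 50 cytosolic ribosomal protein genes with enough reads passed in EBs, 48.0%, and 14 of 62 in ESCs, 22.6%, beside 30.2% and 22.0% of all members. The median GC content of this group was 56.9%, and of all members at 55 to 60% GC 41.5% passed in EBs and 27.2% in ESCs. Rpl3, a protein of the large ribosomal subunit, held 11 RAD21 and 8 IgG reads in ESCs, against 16 and 5 in EBs. Rpl27 went from 12 and 5 to 8 and 2, and Rps19 from 10 and 4 to 10 and 1. Mrps31, of the small mitochondrial subunit, held 14 and 20 in ESCs and 13 and 11 in EBs, with no excess in either.

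The other named genes of these groups were chosen for their RAD21 reads, which favours an excess over IgG, and their values are a description. Mrpl24 held 14 RAD21 with 7 IgG reads in ESCs and 10 with 1 in EBs, and Mrps28 held 15 with 2 and 9 with 3. Of complex I, Ndufc1 held 15 with 6 and 10 with 5, and Ndufa12 11 with 6 and 12 with 3. Of the proteasome, Psmd11 held 13 with 8 and 14 with 5, Psmc5 10 with 5 and 8 with 2, and Psma2 6 with 5 and 10 with 1. Summed over each whole group, RAD21 reads were 388 in ESCs and 338 in EBs for mitochondrial ribosomal proteins. They were 183 and 142 for complex I, and 190 and 147 for the proteasome. Over all members they were 104180 and 57593, the EB libraries being shallower.

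The 317 zinc finger genes without a peak had 1.21 times the tiles in ESCs (1.13 to 1.30) and 1.70 in EBs (1.54 to 1.86). In EBs they also stood above other members of like GC, at 1.24 (1.13 to 1.36). The 3 with the most RAD21 reads were Zfp457, Zfp953 and Zfp763. Zfp457 held 20 RAD21 and 8 IgG reads in ESCs, against 17 and 5 in EBs, and was high in both. Zfp953 held 22 with 8 and then 11 with 5, and Zfp763 held 19 with 8 and 13 with 6.

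Genes used in few tissues stood at or below the level of the tiles. The 1072 olfactory receptor genes had 0.996 times the tiles in ESCs (0.963 to 1.03) and 0.95 in EBs (0.906 to 0.996), and the 318 vomeronasal receptor genes 0.978 (0.910 to 1.05) and 0.949 (0.861 to 1.04). The 92 keratin and keratin-associated genes had 0.966 (0.853 to 1.09) and 0.885 (0.726 to 1.08). Against other members of like GC the keratins were lower, at 0.841 (0.742 to 0.953) in ESCs and 0.641 (0.525 to 0.783) in EBs. The 41 beta-defensins, antimicrobial peptides of epithelia, had 1.06 (0.889 to 1.27) in ESCs and 0.685 (0.518 to 0.905) in EBs.

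The members with the most RAD21 reads in these families were chosen for those reads, and Olfr20, Vmn1r235 and Defb37 still had as many IgG reads or more in ESCs. Olfr1368 held 20 RAD21 with 15 IgG reads in ESCs and 5 with 1 in EBs, Olfr1489 held 14 with 8 and 9 with 4, and Olfr20 held 12 with 22 and 10 with 5. Vmn1r235 held 19 with 22 and 12 with 22, Vmn2r74 18 with 6 and 9 with 9, and Vmn1r27 14 with 6 and 9 with 3. Of the keratins, Krt28 held 14 with 10 and 5 with 2, Krtap9-3 11 with 7 and 5 with 6, and Krt13 13 with 6 and 2 with 1. Defb39 held 14 with 7 and 4 with 3, Defb40 12 with 7 and 6 with 2, and Defb37 11 with 11 and 5 with 5. Many of these families hold near-identical copies, and how reads with several matches were placed is not given in the sources used here.

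Developmental groups followed, and their difference from the groups above was not tested. The 33 Hox genes without a peak had 1.45 times the tiles (1.15 to 1.83) in ESCs and 1.53 (1.04 to 2.24) in EBs. Hox proteins set position along the body axis. Hoxc5 held 22 RAD21 and 2 IgG reads in ESCs, against 11 and 2 in EBs. Hoxd4 held 13 with 5 and then 8 with 1, and Hoxa6 held 9 with 5 and 5 with 1. The 48 regulators of germ layers and lineages had 1.22 (1.00 to 1.49) in ESCs and 1.01 (0.719 to 1.43) in EBs. Eomes, a T-box factor of mesendoderm, held 18 RAD21 and 5 IgG reads in ESCs, against 3 and 1 in EBs. Gata3 held 13 with 5 and 1 with 3, and Hand2, a factor of heart and limb, 7 with 2 and 7 with 1. The 39 differentiated tissue products had 1.00 (0.822 to 1.22) and 1.03 (0.752 to 1.41), and 4 of 34 passed 2-fold in ESCs and 0 of 14 in EBs, beside 22.0% and 30.2% of all members. Hba-x held 14 with 10 and 3 with 2, Pecam1 13 with 10 and 4 with 4, and Tek 12 with 7 and 5 with 4. Against other members of like GC the Hox genes had 1.25 (0.995 to 1.58) in ESCs and 1.07 (0.730 to 1.57) in EBs. The germ layer and lineage regulators had 1.05 (0.860 to 1.28) and 0.706 (0.502 to 0.994), and so lay lower in EBs. The differentiated tissue products had 0.862 (0.708 to 1.05) and 0.738 (0.540 to 1.01).

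The core pluripotency genes had 23 members without a peak, and together 159 RAD21 and 93 IgG reads in ESCs, or 1.47 times the tiles (1.14 to 1.90). In EBs they held 52 and 27 reads, or 1.70 times (1.07 to 2.71). Against members of like GC the values were 1.27 (0.983 to 1.64) and 1.31 (0.823 to 2.09), so a difference from other promoters was not detectable at this depth. Tbx3, a T-box repressor, held 14 RAD21 and 1 IgG read in ESCs, against 2 and 1 in EBs. Nanog held 15 and 13 in ESCs and 5 and 2 in EBs, and Pou5f1, which encodes OCT4, held 4 and 4, then 1 and 1. RAD21 and IgG were thus at like levels at Nanog and Pou5f1 in ESCs, while at Tbx3, and at Prdm14 with 20 and 3, RAD21 stood above.

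The rest of the pluripotency group varied in the same way. Sall4 held 12 RAD21 and 7 IgG reads in ESCs, Stat3 12 and 6, Gdf3 12 and 4, and Zfp42 8 and 3. Klf5 held 6 and 1 in ESCs and 6 and 0 in EBs, and Utf1 8 and 0 in ESCs with no read in EBs. Nr5a2 had more IgG, with 6 and 12 in ESCs and 7 and 5 in EBs, as did Tcl1 with 3 and 8 in ESCs. For Tdgf1, Dppa2, Dppa3, Dppa4, Dppa5a, Lin28a, Esrrb, Fgf4, Klf2 and Klf4 the RAD21 reads in ESCs ran from 0 to 7, and Rex2 had no read in any library.

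Genes of cohesin itself had 20 members without a peak, at 1.29 times the tiles in ESCs (0.954 to 1.73) and 1.38 in EBs (0.913 to 2.10). Rad21 held 28 RAD21 and 14 IgG reads in ESCs, against 20 and 10 in EBs. The IgG reads there were also high, and the BAC adds copies of this region, whose part in the reads was not tested. The neighbouring start of Aard, 48347 bp away, held 24 and 9 in ESCs and 13 and 9 in EBs. Espl1, the protease that cleaves RAD21 at anaphase, held 12 and 6 in ESCs and 3 and 1 in EBs. Stag1 held 8 and 5, Smc3 4 and 1, Nipbl 1 and 0, Pds5b 5 and 1 and Ctcf 2 and 0 reads in ESCs. The remaining members, Sgol1, Sgol2, Rad21l, Rec8, Mau2, Pttg1, Esco1, Esco2, Cdca5, Ctcfl, Wapal, Stag3 and Smc1b, held 0 to 8 RAD21 reads in ESCs and 0 to 6 in EBs.

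The protocadherins had the highest value of the gene groups in both cell types, with intervals that overlapped those of some small groups. The 13 without a peak, of 24 in all, held 196 RAD21 and 67 IgG reads in ESCs, against 81 and 32 in EBs, or 2.81 times the tiles (2.13 to 3.70) and 2.44 times (1.62 to 3.68). Their IgG reads were at the level of the tiles, 0.984 and 0.899 times. These cell adhesion genes lie in clusters whose promoters are chosen stochastically in neurons and are known to be bound by CTCF. Pcdhb14 held 21 RAD21 and 8 IgG reads in ESCs, against 14 and 2 in EBs. Pcdhb17 held 22 and 11, then 11 and 3, and Pcdhb21 held 26 and 6, then 4 and 7. At 2-fold 9 of 13 passed in ESCs and 6 of 11 in EBs, beside 22.0% and 30.2% of all members.

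Smaller groups gave wider intervals. The 12 genes for RNA polymerase II subunits had 1.75 (1.13 to 2.69) in ESCs and 1.32 (0.802 to 2.17) in EBs. Polr2c held 15 RAD21 and 2 IgG reads in ESCs, against 6 and 4 in EBs. Polr2e held 11 with 3 and then 6 with 3, and Polr2k 5 with 6 and 8 with 3. The 24 immediate early and heat shock genes had 1.00 (0.727 to 1.38) in ESCs and 2.37 (1.33 to 4.24) in EBs, the latter from 51 RAD21 and 15 IgG reads. Ier3 held 12 with 6 and 6 with 2, Nr4a1 12 with 4 and 4 with 0, and Ier2 12 with 3 and 1 with 1. The 61 replication-dependent histone genes had 0.918 (0.770 to 1.10) and 1.37 (1.12 to 1.67). Hist4h4 held 18 with 5 and 15 with 11, Hist1h2be 15 with 4 and 8 with 7, and Hist1h4h 10 with 7 and 11 with 3. Against other members of like GC, RNA polymerase II subunits had 1.45 (0.944 to 2.24) in ESCs and 0.875 (0.532 to 1.44) in EBs. Immediate early and heat shock genes had 0.894 (0.650 to 1.23) and 1.67 (0.939 to 2.97). Histone genes had 0.794 (0.665 to 0.947) and 0.930 (0.763 to 1.13). Only the histone genes in ESCs lay apart, and lower, by more than counting error.

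**Figure D5:**
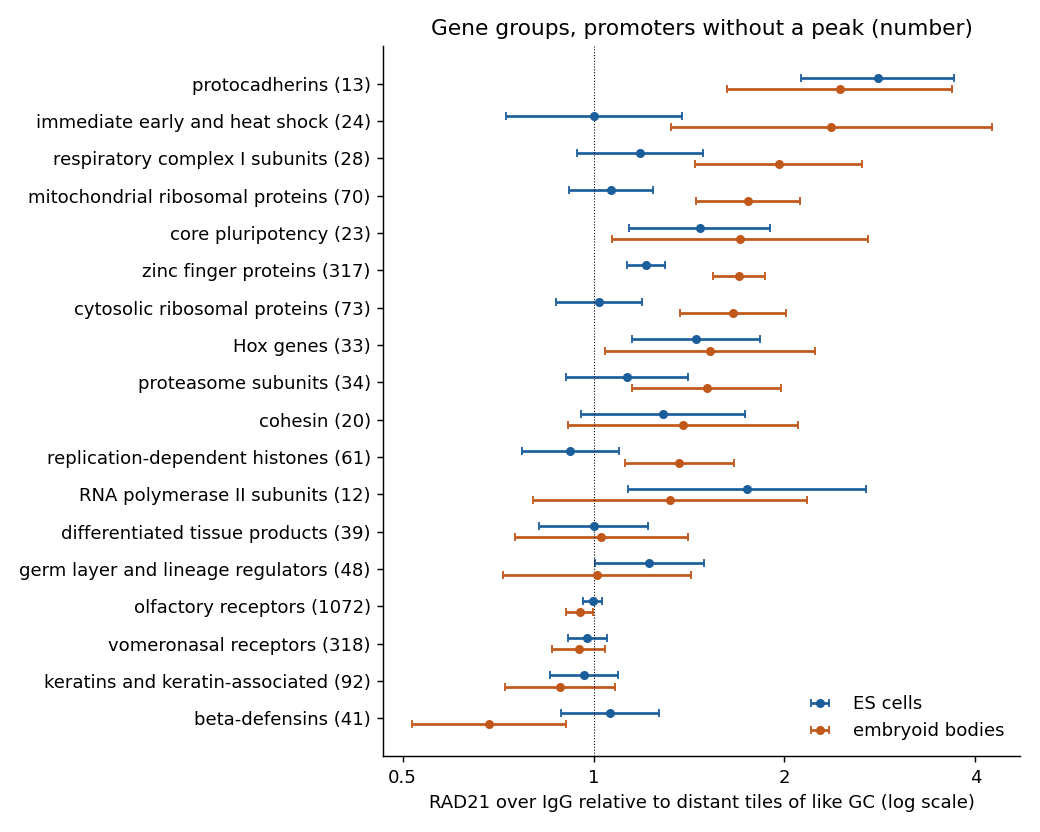
RAD21 over IgG relative to distant tiles of like GC on a log scale, summed over the promoters without a peak of each gene group (number in brackets), in ESCs (blue) and EBs (orange), with 95% counting intervals. Protocadherins lie highest in both, receptor families and keratins lie at or below 1, and ribosomal protein genes lie near 1 in ESCs and at 1.66 and 1.75 in EBs.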

How the data were processed

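The deposited read files held 1 aligned 35-base read per line, with position and strand (Genome Analyzer II reads on mm9, per the labels); the aligner is not given in the sources used here. No position and strand was repeated in any autosomal file, 7 lines of the ESC IgG file and 1 of the EB IgG file were incomplete, and the last ends on chromosome X, so autosomes were used. The authors called peaks with MACS against the IgG library of the same cells, and the deposited peak score grows with the significance of the peak. The 15311 ESC and 11022 EB peak intervals served only to choose members, so members were picked by calls made on the same libraries.

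Read ends were moved to the fragment centre (fragments of 205 bp in ESCs and 196 bp in EBs by strand cross-correlation) and counted in windows of 1001 bp. Ratios carry exact conditional binomial 95% intervals, and ratios relative to tiles a log-scale Poisson interval. Tiles were matched in GC bins of 1% from 22% to 68%, with at least 20 tiles a bin, and promoters outside these bins took the nearest. Genes with over 10% N in the window (2) were left out. The interval code was tested on simulated reads. Python 3.11.15, numpy 2.4.6, scipy 1.17.1 and pandas 2.3.3 were used.

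Named genes were the 10 highest lower limits and 5 lowest upper limits in each cell type, the 5 largest differences each way between cell types, the 3 members with most RAD21 reads in each gene group (given where a group is described), and every core pluripotency and cohesin gene. One gene named by this rule and 1 stretch of sequence are not reported here. Members and gene groups were chosen with earlier results of these data known.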

Additional observations from a re-analysis of the deposited data

Results flagged for a closer look

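RAD21 over IgG relative to distant tiles differed between EBs and ESCs by more than counting error in 11 sets of promoters without a peak. Every GC class and gene group described above was examined for this. A value above 1 means that this ratio of ratios was higher in EBs, which need not come from more RAD21 reads. By GC content it was 1.09 at 45 to 50%, 1.28 at 50 to 55%, 1.33 at 55 to 60% and 1.19 at 60 to 65%. By gene group it was 2.37 for immediate early and heat shock genes, 1.63 for cytosolic and 1.65 for mitochondrial ribosomal proteins, 1.65 for respiratory complex I, 1.49 for replication-dependent histones, 1.4 for zinc finger genes and 0.645 for beta-defensins. Each compares 1 pair of libraries with another, so these are differences between libraries. In RPM, RAD21 in EBs over ESCs was 0.888, 0.991, 1.02 and 0.992 for these GC classes, and IgG 0.844, 0.821, 0.834 and 0.830. For immediate early and heat shock genes RAD21 was 0.961 and IgG 0.426. For beta-defensins they were 0.581 and 0.937. In the remaining groups RAD21 ran from 1.21 to 1.71 and IgG from 0.894 to 1.24. The IgG reads relative to tiles were also higher in EBs than in ESCs for most of these sets, for example 2.30 against 1.41 for cytosolic ribosomal proteins, and their part was not tested.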

How the results depend on the processing

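Of 147 recomputed values, 109 stayed within the counting interval or within 1.5 times the count reported. Counting within 250 bp of the start, in place of 500 bp, gave 1.26 in ESCs and 1.39 in EBs at all members. It gave 1.73 and 2.05 at 60% GC or more, and 1.17 and 1.37 relative to tiles. Calls at 2-fold were then 1933, 991 and 257 in ESCs, EBs and both. Within 1000 bp of the start the ratios were, in the same order, 1.18 and 1.32, 1.4 and 1.73, and 1.09 and 1.30. That setting also gave 0.928 under 45% GC in ESCs, 4289 calls in EBs, and 1.12 for EBs over ESCs. Scaling by the tiles gave 1.32 and 1.48 at all members, 1.69 and 2.06 at 60% GC or more, 1.01 under 45% GC in ESCs, which turned its direction, 0.998 in EBs, and 1.13 for EBs over ESCs (1.10 as scaled to autosomal reads); the ratio relative to tiles cannot move with it. Requiring no peak within 10 kb gave 1.22 and 1.33. Without starts within 1 kb of another, EBs had 1.32, 1.31 relative to tiles, and 1.07 over ESCs. At 3-fold the calls were 1278, 1110 and 139, and with a minimum of 10 reads 1653, 674 and 163. With no minimum they were 5624 in EBs and 1573 in both. Leaving out 9 members with 50 or more IgG reads in a library, a choice made after seeing the data, left every value within its interval or count limit. Depth limits single promoters most, and also sums over small groups and over the most GC-rich members and tiles. No paired analysis was possible because each group has 1 library.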

Other observations

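Of the members, 711 had no read in any of the 4 libraries: 401 with Gm symbols, 53 of the Vmn1r and 23 of the Vmn2r vomeronasal receptor families, 5 olfactory receptors and 229 others. At the other extreme, 9 members with 50 or more IgG reads in a library held 1.69% of all IgG reads of members in ESCs and 2.97% in EBs. They had RAD21 and IgG at like levels in most cases, as at Gm10801 with 353 RAD21 reads against 340 IgG reads in ESCs, and 324 with 322 in EBs. Sfi1, a centrin-binding protein gene, differed, with 238 RAD21 reads against 114 IgG reads in ESCs, and 83 against 56 in EBs.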
